A study of Ovis aries with 16 samples.

Results

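SLC11A1, CYBB, LTF and CATHL3 are genes of the antimicrobial equipment of phagocytes, and their mRNA was followed across 16 arrays of fetal sheep hippocampus. They were found on the ovine Agilent array by the gene name or description of each probe, which gave 4 of 828 named genes and 7 of 15008 probes: 2 for SLC11A1, 3 for CYBB and 1 each for LTF and CATHL3. The genes were chosen by measured values. SLC11A1 was picked for its difference between hypoxia and normoxia without ketamine, and LTF, CATHL3 and CYBB for the difference between hypoxia and normoxia with ketamine. Those differences are therefore given as descriptions without a test, and tests are kept for LTF, CATHL3 and CYBB in the comparison without ketamine and for SLC11A1 in the comparison with ketamine.

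Late gestation fetuses carrying vascular catheters went through 30 min of hypoxia of the ventilated air of the ewe, or the same time in normoxia, then 23.5 h of normoxia, and the hippocampus was taken at 24 h. The groups were normoxia control (NC, n = 3), normoxia with ketamine (NK, n = 4), hypoxia control (HC, n = 5) and hypoxia with ketamine (HK, n = 4), where ketamine was 3 mg/kg given intravenously before the stimulus. Each array held the RNA of 1 fetus, nearly all fetuses were twins, and pregnancies rather than fetuses were assigned to normoxia or hypoxia, so fetuses of different groups may share an ewe. Where they do, a tested comparison is not fully separate from the one that picked the gene. Two-sided limma tests of 1 fit over all 4 groups measure the spread between these fetuses. Array names below join the group and the replicate number, as in HC2.

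Phagocytes kill engulfed microbes by several routes that these genes represent. SLC11A1 (also NRAMP1) is a transporter in the phagosome membrane of macrophages and neutrophils that moves iron and manganese out of the compartment. CYBB encodes gp91-phox, the catalytic subunit of the phagocyte NADPH oxidase, which makes superoxide. LTF encodes lactoferrin, an iron-binding protein of neutrophil secondary granules and of secretions, and CATHL3 (Bac7.5 in the array annotation) encodes a cathelicidin, a proline-rich antimicrobial peptide stored in neutrophil granules as an inactive precursor. In resting brain, CYBB and SLC11A1 are known from microglia and border macrophages, while lactoferrin and the cathelicidins are known mainly from neutrophils and their precursors. In ruminants the cathelicidins form a family of neighbouring genes, and in the RefSeq annotation of the sheep genome CATHL3 lies beside BAC5, with SC5 and CATHL1B, a bactenecin gene, on the same chromosome.

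The probes are shown because the names in the array files are old and because the cathelicidins are relatives whose probes could bind each other's transcripts. The LTF probe and the brightest CYBB probe, which the files list as gp91-phox under the identifier NP13107211, are printed whole.
LTF A_70_P030196: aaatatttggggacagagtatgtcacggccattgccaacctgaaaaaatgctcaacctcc
CYBB A_70_P068061: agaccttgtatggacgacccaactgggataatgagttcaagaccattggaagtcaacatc
For SLC11A1 and the cathelicidins a stretch of 30 bases around the AATAAA hexamer, the usual signal for polyadenylation, is printed with that hexamer in capitals.
SLC11A1 A_70_P030356: aagagtctgaaaatgctaAATAAAcgctgt
CATHL3 A_70_P039281: gacttctggacggtgaaaAATAAAttctgg
CATHL1B A_70_P051377: aagctactggatctgaaaAATAAActcttg
BAC5 A_70_P039656: ctgagtcagcatccaaaaAATAAAatcttg
SC5 A_70_P030426: gacttctggactctgagaAATAAAttcttg
Over their 60 bases, the CATHL3 probe and the SC5 probe had at most 12 bases in a row in common, CATHL3 and CATHL1B 11, and CATHL3 and BAC5 9. A longest run understates the likeness, since the printed stretches of CATHL3 and SC5 match at most positions. Binding between relatives was not measured. The other CYBB probes, A_70_P021811 and A_70_P021812, overlap by 59 of 60 bases and so are close to 1 measurement made in duplicate.

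Values are scaled intensities: the background-subtracted Cy3 intensity of a probe, divided by the 75th percentile of its array and multiplied by 1000, so that 1000 is the level of a fairly bright probe. Levels of different probes are not compared as amounts of mRNA. The scanner software marked 76.7% to 82.6% of the spots of an array as well above background, and the 75th percentile was 882 to 1199 intensity units before scaling. Probes with this mark on at least 3 arrays were tested, 12541 in all. All 7 member probes passed that filter. The brightest probe of SLC11A1 and of CYBB, the LTF probe and the CATHL3 probe were well above background on 16 of 16 arrays. The second SLC11A1 probe, A_70_P030357, was so on 14 arrays, A_70_P021811 on 6 and A_70_P021812 on 3. As a check of the labelled tissue, the neuron genes SST, NPY and GRIA2 had mean scaled intensities of 25358, 4871 and 4217, and the astrocyte genes AQP4 and GFAP 60595 and 2174, with AQP4 saturated on 1 array. With 3 to 5 arrays a group, precision is limited by their number. In whole tissue, more phagocytes and more mRNA per phagocyte cannot be told apart.

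SLC11A1, the metal transporter, was low in every normoxia array and higher in every array of hypoxia without ketamine. Its brightest probe read 21.1, 17.9 and 32.0 in NC, and 18.3, 35.7, 30.3 and 30.5 in NK. In HC it read 91.3, 547, 318, 81.1 and 84.5, and in HK 190, 115, 27.5 and 78.5. The lowest HC array was above the highest normoxia array, HC2 and HC3 stood well above the other HC arrays, and of the HK arrays only HK3 lay among the normoxia arrays. Every HC array was above every NC array for 2.89% of all probes tested. The geometric means were 161 (HC), 83.0 (HK), 27.9 (NK) and 23.0 (NC). HC-NC, the difference that picked the gene, was 2.81 on the log2 scale (SE 0.67), a 7.02-fold higher level, and it was 1.90 without HC2 and HC3, an alternative added after the values were seen.

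In the comparison of hypoxia with normoxia under ketamine, which did not choose it, SLC11A1 rose by 1.57 on the log2 scale (SE 0.64), a 2.98-fold higher level. It passed the study's criterion of an unadjusted p under 0.05 (limma p = 0.0283, exact permutation p = 0.114) but not the Benjamini-Hochberg adjustment over all probes tested (adjusted p = 0.90). Of all probes tested, 2.81% were higher at the criterion in HK-NK and 2.46% were lower. The smallest p that the exact permutation test allows for 4 arrays against 4 is 0.0286, and 3 of 4 HK arrays were above every NK array. Leaving out HK1, HK2 or NK1 lowered the difference to 1.18, 1.42 and 1.37 and ended the call each time. It was 2.53 on the first slide against 0.61 on the second, each with 2 arrays a group.

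The second SLC11A1 probe gave the same order of the HC arrays, and of the HK arrays except that HK2 and HK4 were nearly level. It read 52.4, 297, 158, 28.5 and 42.2 in HC and 101, 55.6, 16.8 and 56.1 in HK, against 19.9, 20.8 and 14.6 in NC. The 4 NK arrays read 2.24, 14.8, 17.0 and 9.03, and the first and last of them, NK1 and NK4, were not well above background. The HK-NK difference of 2.51 on the log2 scale (SE 0.78) thus rests on 2 of 4 NK arrays that measured the probe, and its size is not taken as support for the first probe. HK3 was again inside the NK range.

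**Figure D1:**
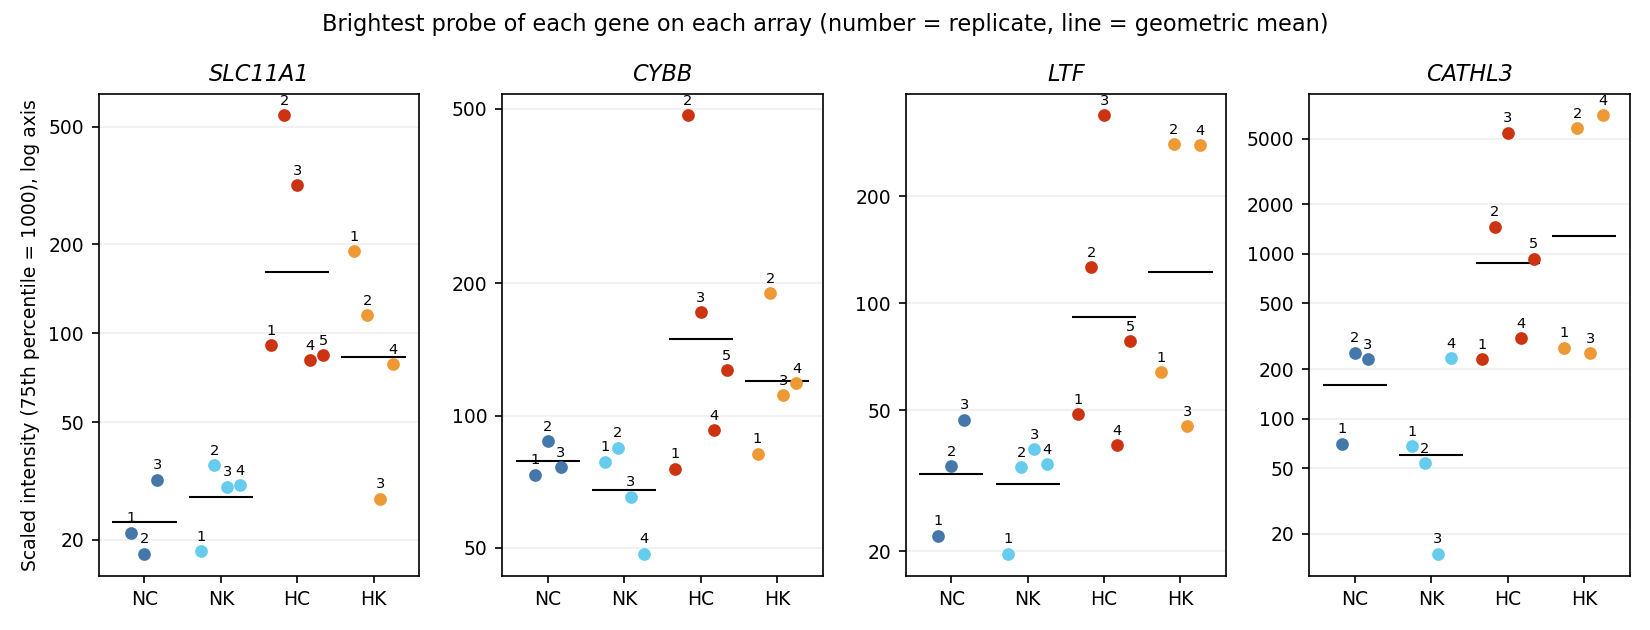
Scaled intensity (log axis, 75th percentile of an array set to 1000) of the brightest probe of SLC11A1, CYBB, LTF and CATHL3 in each fetus, by group. Each point is 1 array with its replicate number and each line is a geometric mean. SLC11A1 and CYBB were highest in HC2, whereas LTF and CATHL3 were highest in HC3, HK2 and HK4.

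CYBB, the oxidase subunit, had the flattest profile of the genes. Its brightest probe read 73.4, 87.6 and 76.3 in NC and 78.6, 84.4, 65.3 and 48.5 in NK. It read 75.7, 483, 172, 92.8 and 127 in HC, and 81.9, 190, 111 and 119 in HK. HC1 and HK1 lay within the normoxia range, and HC2 was more than any other array. The geometric means, 149 in HC, 120 in HK, 78.9 in NC and 67.7 in NK, were closer together than those of the other genes.

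HC-NC, the comparison open to a test for CYBB, was 0.92 on the log2 scale (SE 0.46) and did not pass the criterion (limma p = 0.0660, adjusted p = 0.513, exact permutation p = 0.196). For 5 arrays against 3 the smallest exact p is 0.0179, and 4 of 5 HC arrays were above every NC array. Of all probes tested, 4.55% were higher in HC-NC at the criterion, 6.27% were lower, and 2.89% had every HC array above every NC array. The difference was 1.25 on the first slide and 0.73 on the second. It was 0.50 without HC2 and 0.29 without HC2 and HC3, so that 1 fetus held much of it. Without HC1 it was 1.17 and without HC4 1.09, and both passed the criterion. With the replicate number as a block it was 1.12 and passed as well.

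The 2 dim CYBB probes added little. A_70_P021811 was well above background on HC2, HC3 and HC5, on HK2 and HK4, on NK2 and on no NC array. Its HC level was at least 1.36-fold that of NC. The probe passed the filter only through hypoxia arrays, so no test is given for this bound. In such a bound each array of the dim group was set to the lowest signal well above background on that array, or kept at its own measured signal if higher. A_70_P021812, whose HK-NK difference had picked the gene, was well above background on NC1, HC2 and HC3 and on 0 of the 8 arrays of HK and NK, so no fold is given for it there. By the brightest probe HK-NK was 0.82 (SE 0.45), with 3 of 4 HK arrays above every NK array.

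LTF, lactoferrin, read 22.1, 34.8 and 46.9 in NC and 19.7, 34.6, 38.9 and 35.2 in NK. In HC it read 48.7, 126, 338, 39.8 and 78.3, and in HK 64.0, 281, 45.0 and 278. HC3, HK2 and HK4 stood together far above the other arrays, with HC2 next, whereas HC1, HC4 and HK3 were close to the highest normoxia arrays. The geometric means were 123 in HK, 91.8 in HC, 33.1 in NC and 31.1 in NK. HK-NK, which picked the gene, was 1.98 (SE 0.68), a 3.95-fold higher level, with 4 of 4 HK arrays above every NK array, as had 1.87% of all probes tested.

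HC-NC of LTF was 1.47 on the log2 scale (SE 0.70), a 2.78-fold higher level that did not pass the criterion (limma p = 0.0549, adjusted p = 0.480, exact permutation p = 0.107). All HC arrays but HC4 were above every NC array. The difference was 1.50 on the first slide and 1.12 on the second, 1.00 without HC3, and 0.69 without HC2 and HC3. Leaving out HC1 (1.70), HC4 (1.77), HK2, HK3 or HK4 brought it past the criterion, where the HK arrays, which are in neither group, enter only the estimate of the spread (1.47 in each case).

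CATHL3 varied more than any other member. It read 70.5, 252 and 229 in NC and 68.1, 53.5, 15.1 and 234 in NK. In HC it read 229, 1464, 5447, 309 and 936, and in HK 270, 5779, 250 and 6918. HC3, HK2 and HK4 were between 5447 and 6918, HC2 and HC5 were lower, at 1464 and 936, and HC1, HC4, HK1 and HK3 were close to the upper normoxia arrays. Within a group the SD on the log2 scale was 1.02 (NC), 1.62 (NK), 1.84 (HC) and 2.66 (HK). The geometric means were 1282 in HK, 880 in HC, 160 in NC and 59.9 in NK.

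HC-NC of CATHL3 was 2.46 (SE 1.30), a 5.51-fold higher level that did not pass the criterion (limma p = 0.0784, adjusted p = 0.538, exact permutation p = 0.0893). HC1 lay within the NC range, and 4 of 5 HC arrays were above it. Within the slides the difference was 2.12 and 2.34, and it was 1.80 without HC3, 2.95 and past the criterion without HC1, and 1.34 without HC2 and HC3. HK-NK, which picked the gene, was 4.42 (SE 1.26), a 21.4-fold higher level. For CATHL3, 4 of 4 HK arrays were above every NK array, as for 1.87% of all probes tested. The margin was narrow on HK1 and HK3, which read 270 and 250 against 234 on NK4, and HK-NK was 2.12 without HK2 and HK4, an alternative added after the values were seen.

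**Figure D2:**
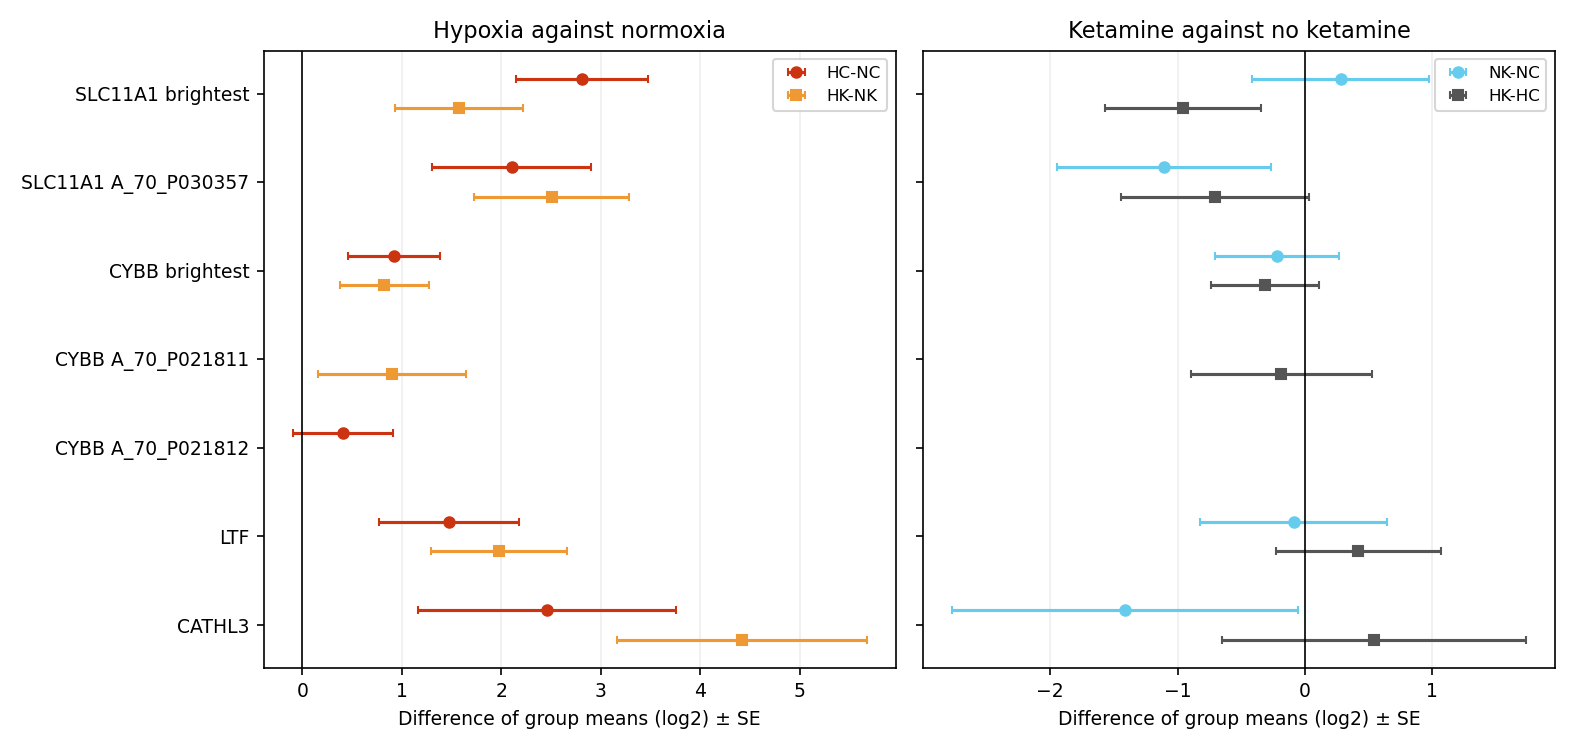
Differences of group means on the log2 scale with their standard errors from the limma fit, for the probes of SLC11A1, CYBB, LTF and CATHL3, drawn where both groups had an array well above background. Hypoxia against normoxia is on the left, without (HC-NC) and with ketamine (HK-NK), and ketamine against no ketamine on the right, in normoxia (NK-NC) and hypoxia (HK-HC). The 12 points on the left lie above 0 and include the differences that picked the genes, and the standard error of CATHL3 is the widest.

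The effect of ketamine on these genes is described without a test, since both comparisons share arrays with those that picked them. In normoxia, NK-NC was 0.28 (SE 0.70) for SLC11A1, -0.22 (SE 0.48) for CYBB, -0.09 (SE 0.74) for LTF and -1.41 (SE 1.36) for CATHL3, each by its brightest probe. NC and NK arrays that share a replicate number varied together, although NC3 varied with NK4 (r = 0.23) about as much as with NK3 (r = 0.21). When the fit within normoxia took the number as a block the differences were 0.24 (SE 0.28), -0.06 (SE 0.11), -0.15 (SE 0.10) and -2.07 (SE 0.80) in the same order. LTF and CATHL3 were lower on the NK array than on the NC array in 3 of 3 such pairs. LTF was nearly level on NC2 and NK2 (34.8 and 34.6), and CATHL3 on NC1 and NK1 (70.5 and 68.1). NK4, the NK array with most CATHL3 (234), has no NC array of its number. After hypoxia, HK-HC was -0.96 (SE 0.61) for SLC11A1 and -0.32 (SE 0.42) for CYBB, while LTF and CATHL3 were 0.42 (SE 0.65) and 0.54 (SE 1.19). The HC and HK arrays overlapped for all 4 genes. Without HC2 and HC3, HK-HC was -0.04 for SLC11A1 and 0.32 for CYBB, and without HK2 and HK4 it was -0.77 for LTF and -1.76 for CATHL3, so the signs and sizes after hypoxia hung on pairs of fetuses. Of all probes tested, 0.71% were higher and 1.07% lower at the criterion in NK-NC, and 2.86% and 1.87% in HK-HC.

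The order of the group levels was thus HC, HK, NK, NC for SLC11A1, HC, HK, NC, NK for CYBB, and HK, HC, NC, NK for both LTF and CATHL3. In each of these orders the neighbours HC and HK differed by less than the larger of their SDs on the log2 scale, and so did NC and NK. The step between the hypoxia and normoxia groups was larger than the SD of either group next to it for all 4 genes (HK over NK for SLC11A1, HK over NC for CYBB, HC over NC for LTF and CATHL3). These group levels include the differences that picked the genes, so the steps are a description. For CYBB, HC-NC (0.92) was smaller than the SD of HC (1.05). The difference of the hypoxia effects with and without ketamine was -1.24 (SE 0.93) for SLC11A1, -0.10 (SE 0.64) for CYBB, 0.51 (SE 0.98) for LTF and 1.96 (SE 1.81) for CATHL3.

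How the genes varied together from fetus to fetus is given as a description, since the arrays that picked LTF, CATHL3 and CYBB are among the 9 hypoxia arrays used, the pairs share those arrays, and the correlations were computed after the values had been seen. Pearson's r on the log2 scale was 0.98 between LTF and CATHL3, and Spearman's rho was 0.82. Without HC3 and HK2, the arrays farthest from the median of LTF, r was 0.97, and with the means of HC and HK removed it was 0.98. HK4, about as high as HC3 and HK2 for both genes, was kept, so the r of 0.97 still includes a high array.

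Between SLC11A1 and CYBB r was 0.65 and rho 0.43. That relation rested on HC2 and HC3, without which r was -0.10. CYBB had r of 0.50 with LTF and 0.52 with CATHL3, and rho of 0.72 and 0.73. SLC11A1 had r of 0.44 with LTF and 0.36 with CATHL3.

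**Figure D3:**
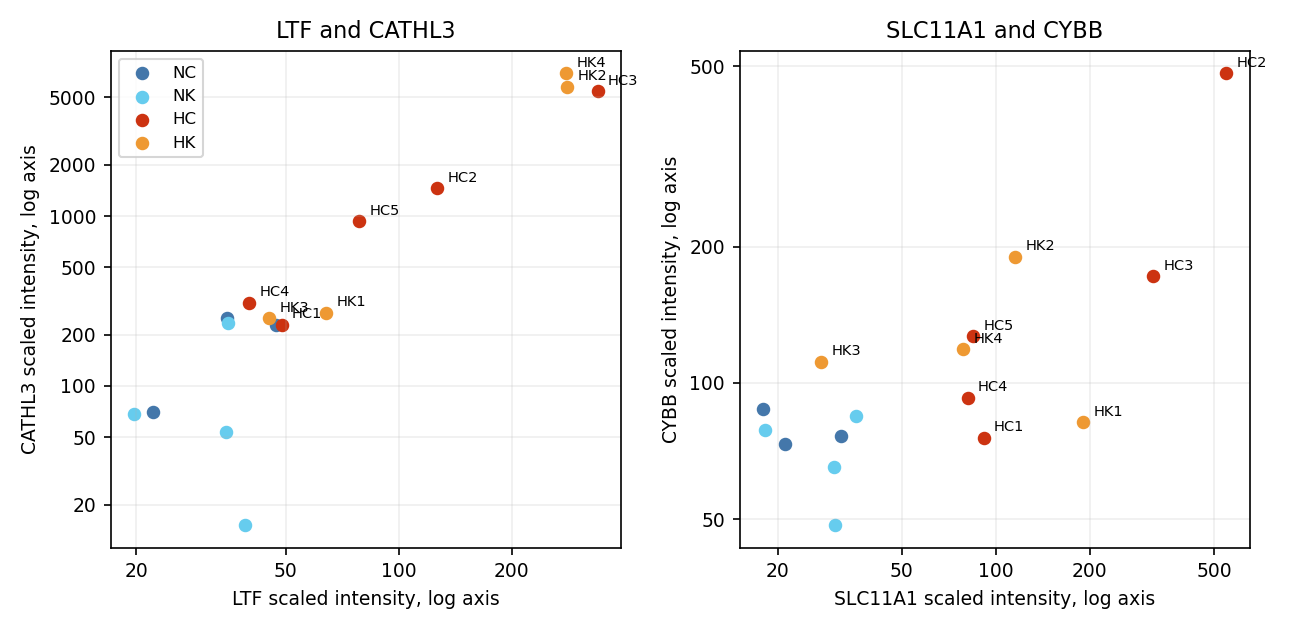
Scaled intensity (both axes logarithmic) of CATHL3 against LTF on the left and of CYBB against SLC11A1 on the right. Each point is 1 array, coloured by group, and hypoxia arrays are named. HC3, HK2 and HK4 lie together at the upper right for LTF and CATHL3, and HC2 stands alone at the upper right for SLC11A1 and CYBB.

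The genes whose profile over all 16 arrays was most like each member's were sought among 708 gene names, as a description. For CATHL3 they were CATHL1B, BAC5 and SC5, all cathelicidins, with Pearson's r of 0.99, 0.98 and 0.94. For LTF they were the same genes, SC5 (0.95), BAC5 (0.94) and CATHL1B (0.92). For CYBB they were the leukocyte integrin chain ITGB2 (0.94), the Fc receptor gamma chain FCER1G (0.91) and the costimulatory molecule CD86 (0.89), and for SLC11A1 IGFBP3 (0.92), which binds insulin-like growth factors, the lipopolysaccharide co-receptor CD14 (0.92) and the C-type lectin CLEC4E (0.87). CLEC4E had signal well above background in 2 HC fetuses, 1 HK fetus and no normoxia fetus. It thus passed the filter only through hypoxia arrays, and its absence in normoxia is not counted as a result. Most of the arrays behind its r were below that mark.

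The cathelicidin relatives repeated the picture of CATHL3 on the same arrays. As binding between relatives was not measured, they may not be separate measurements. CATHL1B read 7211, 8315 and 10164 on HK2, HK4 and HC3, between 270 and 1963 on the other hypoxia arrays, and between 31.9 and 378 in normoxia. BAC5 read 6143, 7344 and 7714 on those 3 arrays and SC5 2576, 2934 and 3352. Neither exceeded 1415 on any other array.

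**Figure D4:**
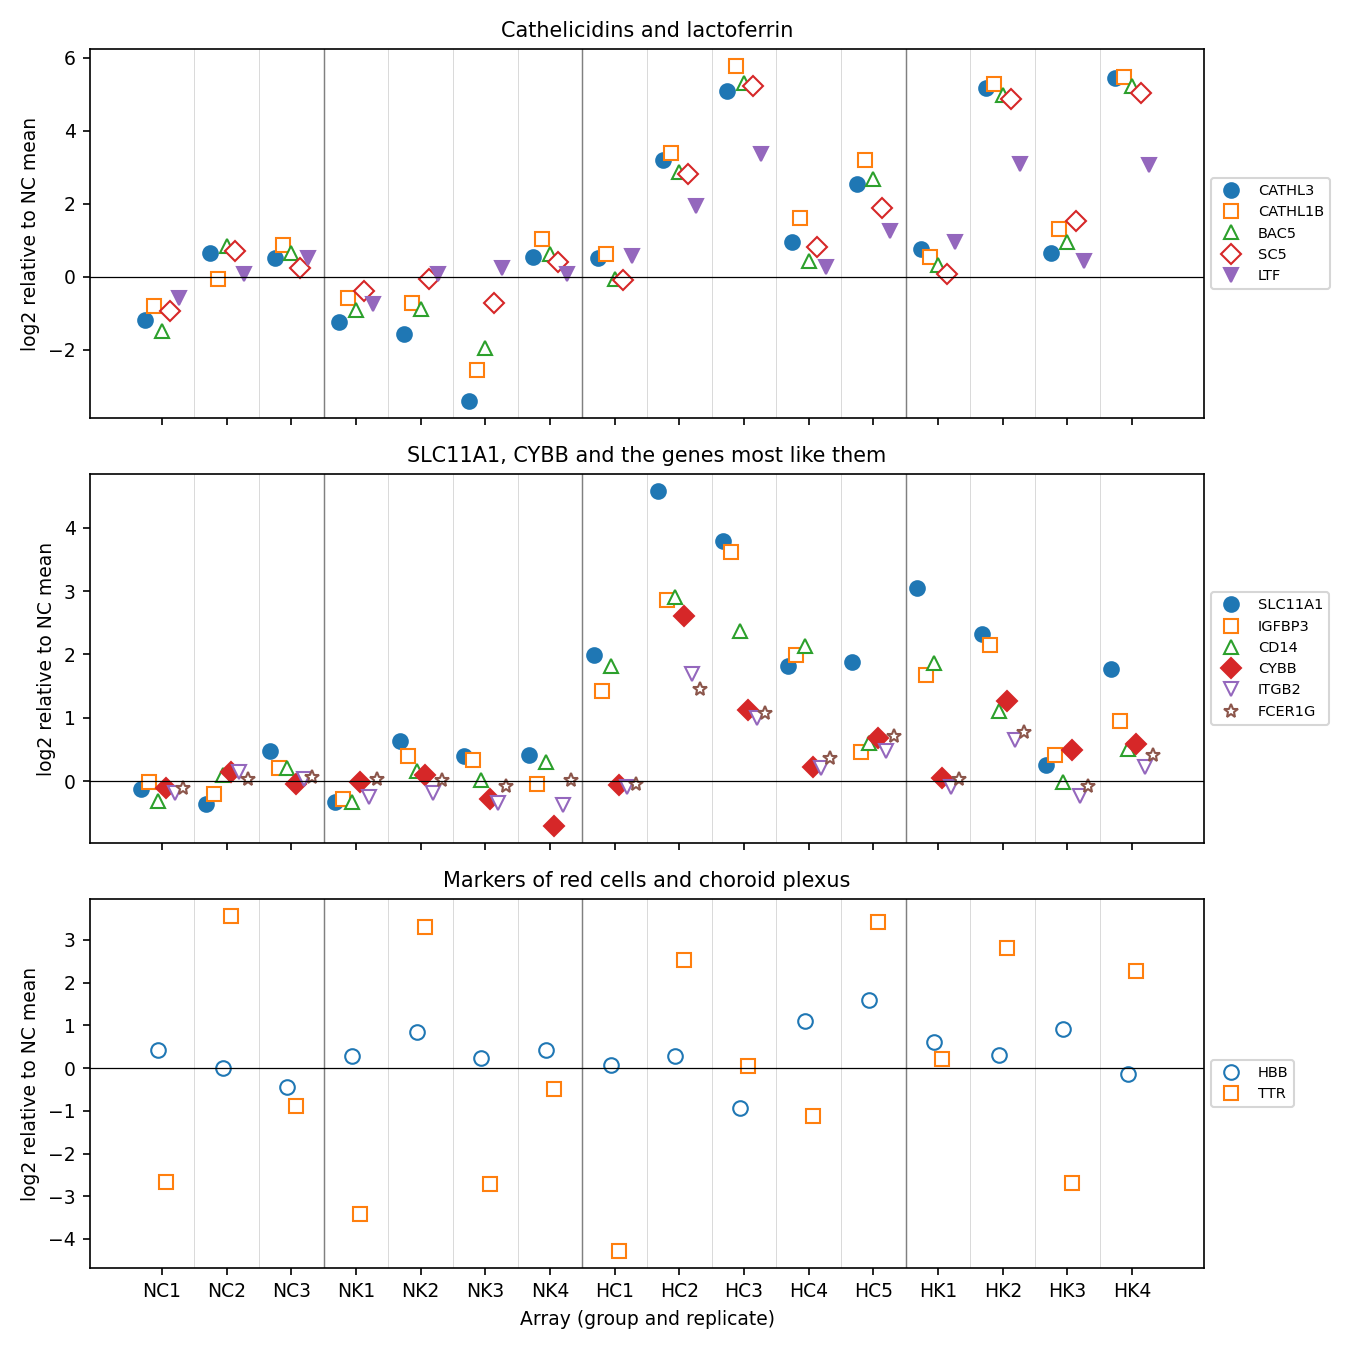
Log2 scaled intensity relative to the NC mean on each of the 16 arrays, with filled symbols for SLC11A1, CYBB, LTF and CATHL3 and open symbols for other genes. The cathelicidins and LTF rise to their highest values on HC3, HK2 and HK4. SLC11A1, CYBB, CD14, ITGB2 and FCER1G are highest on HC2, and IGFBP3 is highest on HC3. The red cell gene HBB is highest on HC5, and the choroid plexus gene TTR on NC2, HC5 and NK2. TTR was saturated on NC2, NK2 and HC5.

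Other genes of the same pathways were read from lists, with the brightest probe of each gene. Of 3 tested partners of the NADPH oxidase, 2 were higher at the criterion in HC-NC, where 4.55% of all probes tested were higher. CYBA, the p22-phox subunit that pairs with gp91-phox, rose by 0.78 (SE 0.26, limma, adjusted p = 0.262) from a mean of 464 in NC to 796 in HC, and RAC1, the small GTPase of the complex, by 0.25 (SE 0.10, adjusted p = 0.392). Neither passed in HK-NK, and without HC2 and HC3 neither passed in HC-NC. The third, NOX4, a different catalytic subunit, did not pass, and the median of the list in HC-NC was 0.25 against -0.03 over all probes tested.

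Iron and metal handling, the process SLC11A1 and lactoferrin share, had 4 tested genes, transferrin (TF), ferritin heavy chain (FTH1), ceruloplasmin (CP) and metallothionein 3 (MT3), and 0 of 4 passed in either hypoxia comparison. Their differences lay between -0.48 and 0.58 in HC-NC, with a median of 0.01. Among 5 tested antimicrobial and granule proteins other than the members, 1 was higher in HC-NC and 3 in HK-NK, and none was lower. The shares of all probes tested that were higher were 4.55% in HC-NC and 2.81% in HK-NK. CATHL1B rose by 2.92 (SE 1.28, limma, adjusted p = 0.425) in HC-NC, where the slide or the replicate number as a block ended the call, and by 3.86 (SE 1.24, adjusted p = 0.90) in HK-NK. In HK-NK BAC5 rose by 3.65 (SE 1.27) and lysozyme (LYZ) by 3.33 (SE 1.17), each with a limma adjusted p of 0.90. CATHL1B and BAC5 had profiles close to that of CATHL3 (r = 0.99 and 0.98), which HK-NK had picked, so their calls there are not separate from that choice. The list's median was 1.87 in HC-NC and 3.33 in HK-NK, against -0.01 over all probes in HK-NK. Without HC2 and HC3, 0 of 5 passed in HC-NC, and without HK2 and HK4, 0 of 5 passed in HK-NK.

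Of 12 tested phagocyte receptors and surface proteins, 7 rose in HC-NC and 0 fell, where 4.55% of all probes tested were higher and 6.27% lower, and the median was 1.09 against -0.03 over all probes. They were CD14 (1.97, SE 0.45, limma, adjusted p = 0.149), the bacterial pattern receptors TLR2 (1.20, SE 0.30) and TLR4 (1.07, SE 0.31), the Fc receptor FCGR1A (1.13, SE 0.44), the urokinase receptor PLAUR (1.15, SE 0.43), FCER1G (0.72, SE 0.27) and the lectin CLEC6A, which had 0 of 3 NC arrays well above background. In HK-NK, where 2.81% of all probes tested were higher, 1 of 12 passed. It was the integrin chain ITGAL, whose probe had 0 of 8 arrays well above background there. The median of the list in HK-NK was 0.48. CLEC6A, ITGAL and the Fc receptor FCGR2B passed the filter only through hypoxia arrays. The filter can therefore have raised the count and the median of this list in HC-NC. In HK-HC 4 were lower at the criterion, CD14, TLR2, TLR4 and FCGR1A, and none was higher. The shares of all probes tested there were 1.87% lower and 2.86% higher. HK-HC and HC-NC share the HC arrays. Without HC2 and HC3, 5 of 12 rose in HC-NC and 0 of 12 were lower in HK-HC.

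Markers of other cell types are set beside these values. HBB, the only red cell gene tested, read 5969 on HC3, 14021 on HK2 and 10383 on HK4, the arrays with most CATHL3 and LTF, and between 8411 and 34196 on the others, so that HC3 had the least of all 16 arrays. TTR, the brightest choroid plexus gene, read 7437, 50343 and 35030 on HC3, HK2 and HK4, and it was saturated on NC2, NK2 and HC5, where it was at least 70745 and CATHL3 read 252, 53.5 and 936. The summed level of 12 phagocyte receptors ran from 1248 to 1577 on the NC arrays, 1286 to 1429 on NK, 1780 to 4937 on HC and 1351 to 2714 on HK. The sum of 3 T and B cell genes ran from 111 to 174 on NC, 147 to 198 on NK, 166 to 411 on HC and 108 to 436 on HK. Of these 3 genes 1, CD5, rose in HC-NC (1.37, limma, adjusted p = 0.262), where 4.55% of all probes tested were higher.

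Among the other antimicrobial and granule genes, LYZ, a lysozyme of neutrophils and macrophages, read 7.93 to 10.8 in NC, 2.63 to 44.9 in NK, 4.03 to 223 in HC and 27.8 to 662 in HK. It was highest on HK2 and HC2, and HK3 was below NK2. The gelatinase MMP9 was well above background on 1 array, in NC, and lactoperoxidase (LPO), a peroxidase of secretions, on none, so neither was tested.

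Of 6 tested neuron genes 4 were lower in HC-NC, where 6.27% of all probes were lower. They were the glutamate receptor subunits GRIN1 (-1.02), GRIA1 (-0.65), GRIA2 (-0.42) and GRIA4 (-0.35). The summed level of the neuron genes, most of it SST, which is not among those 4, was 35832 to 42058 in NC, 32860.3 to 47387 in NK, 9887 to 47653 in HC and 44876 to 48761 in HK. Of 5 tested endothelial genes 2 were higher in HC-NC, where 4.55% of all probes were higher. They were SELP (4.15, SE 0.98, limma, adjusted p = 0.168) and ICAM1 (2.74, SE 0.69, adjusted p = 0.184). PECAM1 (0.08), FLT1 (0.10) and KDR (-0.40) did not pass. In HK-NK SELP was higher and KDR lower at the criterion, where 2.81% of all probes were higher and 2.46% lower. The endothelial sums were 1066 to 1178 in NC, 837 to 1362 in NK, 1244 to 3975 in HC and 1081 to 1851 in HK. SELP alone read up to 2629 in HC. For oligodendrocyte markers 0 of 6 genes were found by name on the array. The part of any of these cell types in the values of SLC11A1, CYBB, LTF and CATHL3 was not tested.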

How the data were processed

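Total RNA from 16 hippocampi was labeled with Cy3 and hybridized by the authors to 1-color Agilent ovine arrays, on 2 slides of 8 that each held all 4 groups. The deposited scanner files give the intensity of each spot after background subtraction, per the file headers by Feature Extraction 10.1.1.1, with no normalization between arrays. The methods of the paper name another version. The authors also deposited a log2 table, whose columns keep the order of their arrays (Spearman's rho of at least 0.991) and which was used as an alternative. Their processing notes name limma and R 2.15.1. Neither a genome build nor the hypothalamus arrays were used here.

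Control spots and outlier spots were left out, log2 of the processed intensity was scaled to the 75th percentile of each array, and spots of a probe were averaged. The 4 groups were fitted with limma 3.58.1 in R 4.3.3, without a background offset, over 12541 probes well above background on at least 3 arrays. The fit was tested on simulated data. The criterion is the study's unadjusted p under 0.05. After Benjamini-Hochberg adjustment 2 probes passed in HC-NC and 0 in each of HK-NK, NK-NC and HK-HC, against 1356, 660, 223 and 594 at the criterion. Exact permutation tests of the same differences stand beside it.

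The genes and gene lists were chosen with earlier results of these data known. Named were all member probes, up to 8 genes past the criterion of each pathway list in HC-NC and HK-NK, the 3 gene names most alike to each member, and the brightest 3 genes of marker lists. Genes named outside this rule were chosen after their values were seen. CATHL3 was named through its RefSeq accession, and 1334 of 15008 probes had a gene symbol.

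Replicate numbers come from the sample labels. NC and NK arrays of the same number deviated together from their group means (r = 0.37, 0.31 and 0.21 over probes), and HC and HK arrays less evenly (0.40, 0.31, 0.07 and 0.12). Pairs of unlike number ran from -0.20 (NC3 with NK1) to 0.23 (NC3 with NK4) in normoxia. In hypoxia they ran from -0.33 (HC1 with HK4) to 0.23 (HC5 with HK4). The labels do not tie the numbers to ewes. Alternatives changed the background, scaling, filter, values, slide or replicate block, arrays, weights, probes or test.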

Additional observations from a re-analysis of the deposited data

How the results depend on the processing

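All 8 hypoxia differences of the 4 genes, HC-NC and HK-NK, kept their positive sign under every alternative run, with sizes that depended on the treatment of dim signals. Those of SLC11A1 in HC-NC and of LTF, CATHL3 and CYBB in HK-NK had picked the genes, so their sign is not counted as support. Every alternative used the same arrays or a part of them. Under normexp background correction, HC-NC was 1.38 for CYBB, 1.61 for LTF and 2.39 for CATHL3, all past the criterion, and HK-NK was 0.68 for SLC11A1, no longer past it, and 0.77 for LTF. In the authors' log2 values HC-NC was 0.50 for SLC11A1, and HK-NK was 0.23 for SLC11A1, not past the criterion, 0.40 for LTF and 2.45 for CATHL3. Quantile normalization and median scaling changed no call of these genes. CYBB in HC-NC passed with the slide as a block (1.02), with the replicate block (1.12) and with array weights (1.16). LTF in HC-NC passed over probes well above background on all arrays (1.47) and with array weights (1.62), and CATHL3 in HC-NC with only the compared groups in the fit (2.46) and with array weights (2.64). By the exact permutation test the HK-NK difference of SLC11A1, 1.57, did not pass. Without HK2 and HK4, chosen after seeing the data, LTF (1.47) and CATHL3 (2.46) passed in HC-NC, and HK-NK was 1.38 for SLC11A1, not past the criterion, 0.79 for LTF and 2.12 for CATHL3. NK-NC turned sign for SLC11A1 within the second slide (-0.072) and for CYBB within the first (0.023).

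Leaving out 1 array at a time gave HC-NC of 0.50 to 1.17 for CYBB, 1.00 to 1.77 for LTF and 1.80 to 2.95 for CATHL3, and HK-NK of 1.18 to 2.10 for SLC11A1. Over all alternatives the limma p lay between 0.0178 and 0.345 for CYBB, 0.0243 and 0.304 for LTF, 0.0320 and 0.341 for CATHL3 and 0.00423 and 0.329 for SLC11A1. The replicate block changed no other call of the 4 genes among the tested comparisons. It moved the probes at the criterion from 660 to 1068 in HK-NK and from 594 to 1055 in HK-HC, and within each oxygen group from 223 to 483 in NK-NC. Normexp gave 585, 73, 18 and 93 probes in HC-NC, HK-NK, NK-NC and HK-HC, array weights 407 in NK-NC and 949 in HK-HC, and probes well above background on all arrays 145 in NK-NC. HK-NK had 414 without HK2 and HK4, and HK-HC 1072 without HC1. The cause of these changes was not tested. Of the listed genes, RAC1, TLR4, FCGR1A, CLEC6A, PLAUR, LYZ and ITGAL lost their call under normexp, CATHL1B in HC-NC with the slide as a block (2.71) and the replicate block (2.53), and CATHL1B in HC-NC, CLEC6A, PLAUR, LYZ and ITGAL in the authors' values.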
